A study of Mus musculus with 6 samples.

Results

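Hedgehog signalling in the mouse molar was examined through 9 of its genes: Shh, Ptch1, Smo, Gli1, Gli2, Gli3, Hhip, Sufu and Gas1. They were taken by gene symbol from the deposited normalized table, as the ligand, its receptors, the Gli transcription factors and the modulators of the pathway. All 9 of the 9 members were found, among 48709 gene rows, and all 9 passed the count filter that left 16011 genes to test. RNA came from first molar tooth germs of C57BL/6 mice at postnatal day 7. Germs of Gpr115-/- mice gave 3 libraries (Gpr115-KO), and germs of their wild-type littermates gave 3 (WT). Gpr115 is listed as Adgrf4 and codes for a receptor of the adhesion family of G protein-coupled receptors, and the study concerned its part in enamel mineralization. The labels do not name the deleted part of the gene, and they do not say whether a library is from 1 animal or from pooled germs. The p-values therefore measure the spread between these libraries, which may be technical.

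Hedgehog signals work by relief of inhibition. Without ligand, the receptor Ptch1 keeps the transducer Smo inactive, and the Gli proteins, held by Sufu, are processed into repressors. Ligand binding frees Smo, full-length Gli2 and Gli3 then activate target genes, and Gli1, Ptch1 and Hhip are themselves such targets. In the developing mouse molar Shh is made by the dental epithelium, and Ptch1 and Gli1 are found in both epithelium and mesenchyme around that source.

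None of the 9 members differed between Gpr115-KO and WT beyond the spread between libraries. By the quasi-likelihood test of edgeR, adjusted p-values of the members ran from 0.487 for Gli3 to 0.955 for Shh. Over all 16011 genes 0.15% were called at an adjusted p under 0.05 (0.0375% higher and 0.112% lower in Gpr115-KO), so 0 of 9 says little about the members. At an unadjusted p under 0.05 the count of members was also 0 of 9, where 12.3% of all genes passed (4.85% higher and 7.48% lower), and DESeq2 called 0 of 9. The fitted log2 fold changes were above 0 for 3 members and below 0 for 6. Their median was −0.08, and the median over all genes tested was 0.01. The libraries of the genotypes did not overlap for 1 of the 9 members, Smo (11.1%, higher in Gpr115-KO), against 17.5% of all genes (8.55% higher and 8.99% lower).

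Depth and tissue content were checked first. The libraries held 8317302 to 10328654 counts in Gpr115-KO and 8833612 to 11122821 in WT, and 1 count was worth 0.0907 to 0.114 CPM (counts scaled to a library total of 1000000, with TMM-scaled totals). The members had between 34 and 1137 counts in single libraries. Adgrf4 had 39.2, 20.6 and 27.5 CPM in Gpr115-KO, against 67.1, 62.5 and 67.5 CPM in WT. Its log2 fold change was −1.18 (SE 0.21, adjusted p = 0.0887, edgeR), and all Gpr115-KO libraries lay below all WT libraries. Without Gpr115-KO replicate 1 the adjusted p was 0.0143, and without any other single library it was 0.143 to 0.325 (edgeR). Markers of the labelled tissue were high, with Ambn, an enamel matrix gene, at 53962 CPM or more, and Dspp, the gene of the main dentin phosphoprotein, at 2913 CPM or more in every library. Gpr115-KO replicate 2 stood apart in skeletal muscle genes, whose summed level was 198 CPM there. The other Gpr115-KO libraries had 21.6 and 51.2 CPM, and WT libraries 30.9 to 49.2 CPM.

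The promoter windows of 3 members are shown, for genes that the pathway is known to switch on or that carry the closest match to the letters Gli proteins bind. RefSeq promoter windows (GRCm38.p6, 250 bases before to 50 after the start) were found for 7 of the 9 members, all but Shh and Gli1. The consensus GACCACCCA was in none of these 7 windows on either strand, and 0.253% of all 32851 windows held it. Its inner letters ACCACCC were in 1 of the 7, that of Gli2, against 4.61% of all windows. The still shorter CCACCC, which every ACCACCC contains, was in 4 of the 7 windows, those of Gli2, Gli3, Hhip and Smo, against 31.5% of all. Below, each window is written 5′ to 3′ on the strand of the gene, and capitals mark the longest of these motifs found. In Gli2 the match is on the opposite strand, at bases 46 to 52 of the window, and in Hhip it is on the same strand from base 93. A match is a run of letters and not a measured binding site. The Ptch1 window lies inside the annotated gene, whose 5′ end is at 63573598, so the sequence at that end was not searched.
Ptch1 (chr13:63565686-63565985, minus strand): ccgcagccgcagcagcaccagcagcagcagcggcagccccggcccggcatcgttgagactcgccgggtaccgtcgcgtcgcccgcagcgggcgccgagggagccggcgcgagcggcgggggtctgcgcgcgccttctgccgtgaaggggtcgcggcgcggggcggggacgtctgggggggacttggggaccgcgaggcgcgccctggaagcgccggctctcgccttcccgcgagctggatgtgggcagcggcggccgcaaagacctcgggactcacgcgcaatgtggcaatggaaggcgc
Hhip (chr8:80057959-80058258, minus strand): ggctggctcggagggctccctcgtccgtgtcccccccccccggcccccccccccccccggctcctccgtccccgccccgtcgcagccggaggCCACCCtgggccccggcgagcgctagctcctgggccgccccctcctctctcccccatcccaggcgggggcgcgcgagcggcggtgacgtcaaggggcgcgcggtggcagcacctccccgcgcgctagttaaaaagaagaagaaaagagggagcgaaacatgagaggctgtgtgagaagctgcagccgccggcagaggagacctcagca
Gli2 (chr1:119053570-119053869, minus strand): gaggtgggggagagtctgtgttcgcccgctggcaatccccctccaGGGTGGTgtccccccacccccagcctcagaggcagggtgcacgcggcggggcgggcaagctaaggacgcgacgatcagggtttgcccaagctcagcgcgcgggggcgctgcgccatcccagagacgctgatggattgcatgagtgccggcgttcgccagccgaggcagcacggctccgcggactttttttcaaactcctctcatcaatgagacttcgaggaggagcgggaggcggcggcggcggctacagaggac

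The ligand gene Shh was low and variable in both genotypes. Shh (ENSMUSG00000002633, chromosome 5, 28456815 to 28467256 on GRCm38, minus strand) encodes the secreted signal itself. It had 3.87, 7.27 and 3.29 CPM in Gpr115-KO libraries, against 3.26, 6.25 and 5.69 CPM in WT libraries. Both the highest and the second lowest value belonged to Gpr115-KO, and the ranges overlapped almost fully. The means were 4.81 ± 2.15 CPM in Gpr115-KO and 5.07 ± 1.59 CPM in WT (SD, n = 3 each). These rest on 34, 68 and 36 counts in Gpr115-KO and 36, 55 and 56 counts in WT. The log2 fold change was −0.07 (SE 0.37), and the 95% interval of the fold change of Gpr115-KO over WT ran from 0.537 to 1.69. Leaving out 1 library at a time moved the log2 fold change between −0.50 and 0.15, so these data give it no direction. In bulk tissue, fewer Shh-producing cells and less Shh per cell cannot be told apart. Exons of 2 non-coding genes on the opposite strand, 9530036O11Rik and Gm26894, share 15.7% and 12.7% of the exonic length of Shh, and strand is not marked by this kit. Their own counts were at most 2 and 15 in any library.

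Ptch1, the receptor that binds Shh and holds Smo back, was the member with the most counts, with Gas1 next. Ptch1 (chromosome 13, 63508328 to 63573598, minus strand) had 55.5, 107 and 74.7 CPM in Gpr115-KO, against 103, 94.4 and 67.6 CPM in WT. Gpr115-KO replicate 1 was the lowest and Gpr115-KO replicate 2 the highest of the 6 libraries, so the Gpr115-KO range enclosed the WT range. The log2 fold change was −0.16 (SE 0.24, adjusted p = 0.834, edgeR). As a known target of the pathway, Ptch1 is often read as a measure of its activity in mouse tissue.

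Smo, the transducer that Ptch1 inhibits, was the 1 member of 9 whose libraries did not overlap between genotypes. That is 11.1% of the members, below the 17.5% of all genes tested. Smo (chromosome 6, 29735503 to 29761365, plus strand) had 15.6, 16.8 and 16.1 CPM in Gpr115-KO, against 11.4, 14.4 and 13.3 CPM in WT. Every Gpr115-KO library lay above every WT library, and the Gpr115-KO values were close together. The mean was 16.2 ± 0.588 CPM in Gpr115-KO and 13.1 ± 1.52 CPM in WT (SD, n = 3 each). The difference is small, a 1.24-fold change with a 95% interval of 0.932 to 1.65, and did not pass (log2 fold change 0.31, SE 0.19, adjusted p = 0.531, edgeR). A stretch of 339 nt of Smo is 97.9% identical to the gene Gm4066 so reads of that stretch are uncertain.

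The inhibitory modulators and the co-receptor gave values that overlapped between genotypes. Hhip, a membrane protein that binds and sequesters the ligand, had 4.33, 6.52 and 8.60 CPM in Gpr115-KO, against 11.4, 9.43 and 4.27 CPM in WT. The highest and the lowest library were both WT, and the log2 fold change was −0.36 (SE 0.37). Sufu, which holds Gli proteins in the cytoplasm, had 11.7, 9.62 and 10.1 CPM in Gpr115-KO, against 10.1, 15 and 8.13 CPM in WT, a log2 fold change of −0.08 (SE 0.26). The Gpr115-KO libraries lay inside the WT range. Gas1, a membrane-anchored co-receptor that helps ligand bind Ptch1, had 53.4, 45.6 and 33.1 CPM in Gpr115-KO, against 81.0, 32.3 and 64.1 CPM in WT. The WT libraries alone spanned a 2.51-fold range, which holds all Gpr115-KO values, and the log2 fold change was −0.43 (SE 0.31). A non-coding gene, Gm48488, shares 19.9% of the exonic length of Gas1 on the opposite strand. The edgeR adjusted p was 0.737 for Hhip, 0.927 for Sufu and 0.618 for Gas1.

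The Gli factors did not move as a group. Gli1, the activator whose own transcription is a standard readout of the pathway, had 7.86, 14.0 and 7.77 CPM in Gpr115-KO, against 9.70, 6.48 and 5.59 CPM in WT. Gpr115-KO replicate 2 was the highest, and the other 2 Gpr115-KO libraries lay within the WT range. An antisense gene, Gm47200, shares 5.31% of the exonic length of Gli1. The log2 fold change was 0.44 (SE 0.31, adjusted p = 0.596, edgeR). Without Gpr115-KO replicate 2, the library with the raised muscle genes, it was 0.10 (adjusted p = 0.943, edgeR); the part of the muscle content in the value was not tested.

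Gli2, the main activator in mouse, had 7.29, 11.4 and 4.76 CPM in Gpr115-KO, against 9.25, 5.46 and 6.71 CPM in WT. Again the highest value was Gpr115-KO replicate 2, while the lowest was Gpr115-KO replicate 3. The log2 fold change was 0.12 (SE 0.34, adjusted p = 0.911, edgeR). Gli3, chiefly a repressor when ligand is absent, had 23.0, 26.2 and 33.2 CPM in Gpr115-KO, against 37.0, 37.6 and 29.5 CPM in WT. Its 2 lowest values were Gpr115-KO and its 2 highest WT, but Gpr115-KO replicate 3 and WT replicate 3 crossed. The log2 fold change was −0.33 (SE 0.18), the smallest p among the members (adjusted p = 0.487, edgeR).

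**Figure D1:**
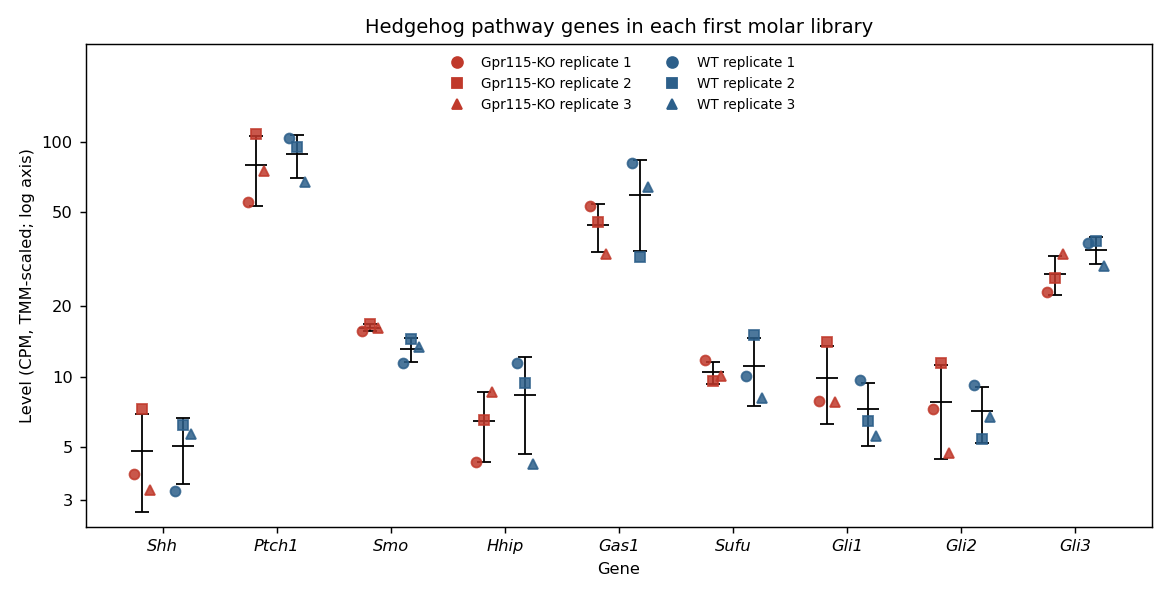
Level of each of the 9 genes in each library, in CPM on a log axis. Red points are Gpr115-KO libraries and blue points WT libraries, the shape gives the replicate number, and black bars are the mean and SD of 3 libraries. Only for Smo do the 3 red points all lie above the 3 blue ones, at 15.6 CPM or more against 14.4 CPM or less.

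The precision of these comparisons differed between members. For 6 of the 9 members, Shh, Ptch1, Smo, Gli2, Gli3 and Sufu, the 95% interval of the fold change lay between 0.5 and 2. For Gli1 it ran from 0.845 to 2.17, for Hhip from 0.437 to 1.38 and for Gas1 from 0.454 to 1.22. Among the 6 libraries the highest level of a member was 1.47 times (Smo) to 2.68 times (Hhip) its lowest.

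One library held most of the highest values. Gpr115-KO replicate 2 was the highest of the 6 libraries for 5 of the 9 members, Shh, Ptch1, Smo, Gli1 and Gli2. The share of all genes that were highest in this library was not counted. Pairs with this library differed by a chi-square per degree of freedom of 42.6 to 87.2, and pairs without it by 15.6 to 56.6. WT replicate 1 was highest for Hhip and Gas1, and WT replicate 2 for Gli3 and Sufu. The lowest values were spread over 5 libraries, with 3 in WT replicate 3 (Gli1, Hhip and Sufu). The summed dental epithelium markers were also highest in Gpr115-KO replicate 2, at 203710 CPM. Nearly all of that sum is the enamel matrix genes Ambn, Amelx and Enam, with 1315104, 430385 and 129775 counts there. Other genes of the list were mixed in this library: Epcam had its lowest count, 111, and Krt5 its highest, 4738. The sum is therefore not a measure of epithelial content. The summed markers varied in the other libraries too. They were at 120133 and 92444 CPM in the other Gpr115-KO libraries and at 109186 to 142144 CPM in WT. The 7 cell division genes were at their lowest sum there, 99.1 CPM, against 112 and 141 CPM in the other Gpr115-KO libraries and 117 to 133 CPM in WT. Their part in the member levels was not tested.

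**Figure D2:**
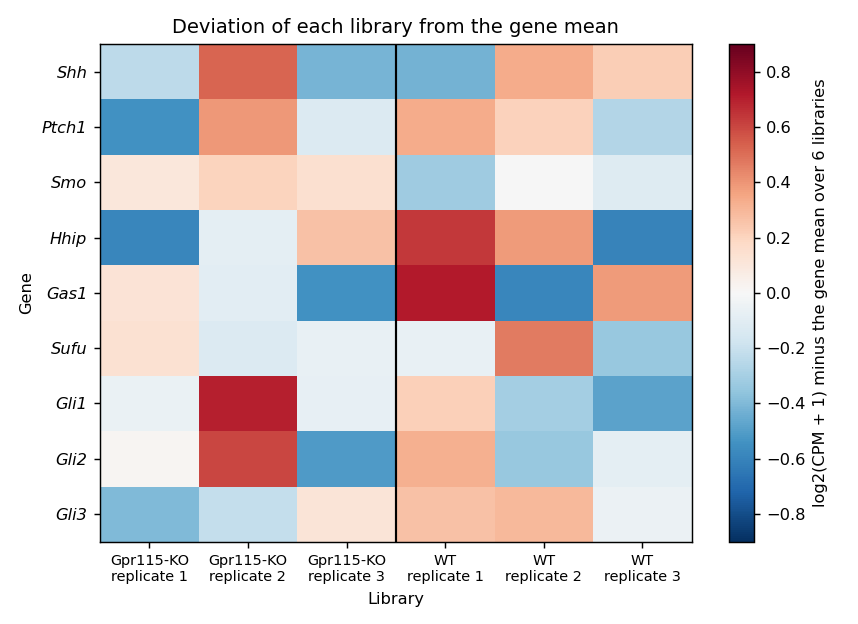
Deviation of each library (columns) from the mean of the gene (rows) on the log2(CPM + 1) scale, red above and blue below the mean. Gpr115-KO replicate 2 is the highest library for 5 of 9 genes, and no gene but Smo has all 3 Gpr115-KO columns above all 3 WT columns.

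Compared per exonic length, the members had an order led by the co-receptor. Gas1 averaged 17.4 ± 6.36 CPM per kb over the 6 libraries (SD). Ptch1 followed at 5.91 ± 1.47, Gli3 at 3.24 ± 0.615 and Smo at 2.60 ± 0.354 CPM per kb. The ligand gene Shh stood in the middle, at 1.74 ± 0.595 CPM per kb, beside Gli1 at 1.72 ± 0.602. Sufu had 1.40 ± 0.308, Gli2 1.09 ± 0.362 and Hhip 0.819 ± 0.318 CPM per kb. Only the step from Gas1 to Ptch1 was free of overlap, and Gas1 was the higher in 6 of 6 libraries. All other neighbours in the order had overlapping ranges, although Ptch1 was above Gli3 and Smo above Shh in 6 of 6 libraries. The lengths are of all annotated exons of a gene together, 14185 nt for Ptch1 and 2847 nt for Shh, so a gene with many isoforms reads low.

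**Figure D3:**
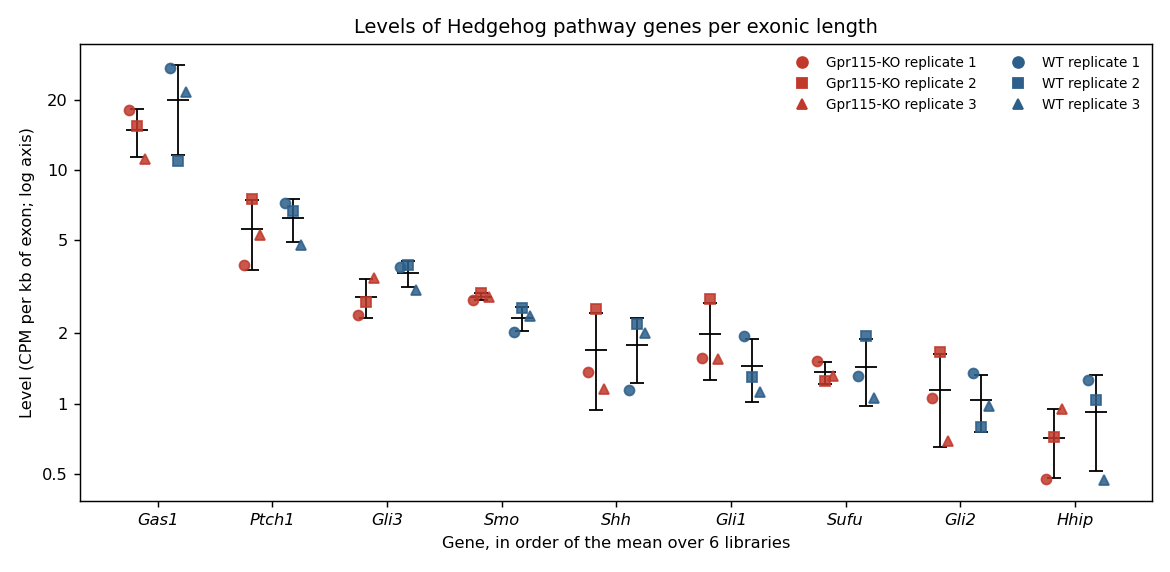
Level of each gene per kb of annotated exon, on a log axis, in the order of the mean over 6 libraries. Red points (left) are Gpr115-KO and blue points (right) WT libraries, and bars are the mean and SD of 3. Gas1 stands above all others in every library, and from Gli3 to Hhip the ranges overlap from one gene to the next.

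Ratios between members within a library were compared for all 36 pairs. In 2 of the 36 the genotypes did not overlap. The share over all pairs of genes was not counted, and pairs that share a member are not independent, so this count says little about the members. The ratio of Ptch1 to Gli1 was lower in all 3 Gpr115-KO libraries than in the WT libraries, with a mean log2 ratio of CPM of 3.01 in Gpr115-KO and 3.62 in WT. The ratio of Smo to Gli3 was higher in each Gpr115-KO library, at −0.75 in Gpr115-KO and −1.41 in WT. A two-sided exact permutation test gave p = 0.1 for both, the smallest it allows with 3 libraries a group, and 0.90 when adjusted over the 36 pairs.

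The genes whose pattern over the 6 libraries was most like that of Shh were Papln, Hspg2 and Cdk2ap1. Likeness was the mean absolute difference of centred log2(CPM + 1), which was 0.10, 0.11 and 0.12 for these genes, where the median over 12628 named genes was 0.39. For Gli1 the closest were Rnf103, Rxra and Zfp622, at 0.08, 0.08 and 0.09, with a median of 0.37. All 6 were picked as the closest genes, so their place below the median follows from the choice. Rxra, for example, had 8.43, 14.6 and 8.41 CPM in Gpr115-KO, against 11.2, 8.64 and 6.30 CPM in WT, with Gpr115-KO replicate 2 highest as for Gli1. Papln had 190, 302 and 145 CPM in Gpr115-KO, against 161, 242 and 209 CPM in WT. None of the 6 neighbours was called (edgeR adjusted p 0.687 to 0.949), beside 0.15% of all genes. This too follows from the choice, as Shh and Gli1 themselves were not called.

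Beyond the 9 members, 54 further pathway genes in 5 lists were read from the same fit, and 46 passed the count filter. In edgeR 0 of the 46 were called in either direction. At an unadjusted p under 0.05 there were 6 of 46 (13.0%), 1 higher and 5 lower in Gpr115-KO, beside 12.3% of all genes. Libraries of the genotypes did not overlap for 8 of 46 (17.4%), beside 17.5% of all genes. Both shares lie near the background. The 8 genes under the filter, with at most 18 counts in any library, included the other ligand genes. Ihh, the ligand of growing bone, had 2 counts in Gpr115-KO replicate 1 and 0 in the other 5 libraries, where 0 counts allow up to 0.272 to 0.341 CPM. Dhh, the ligand made by Schwann cells, had at most 3 counts. Shh was thus the ligand gene with most counts here.

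**Figure D4:**
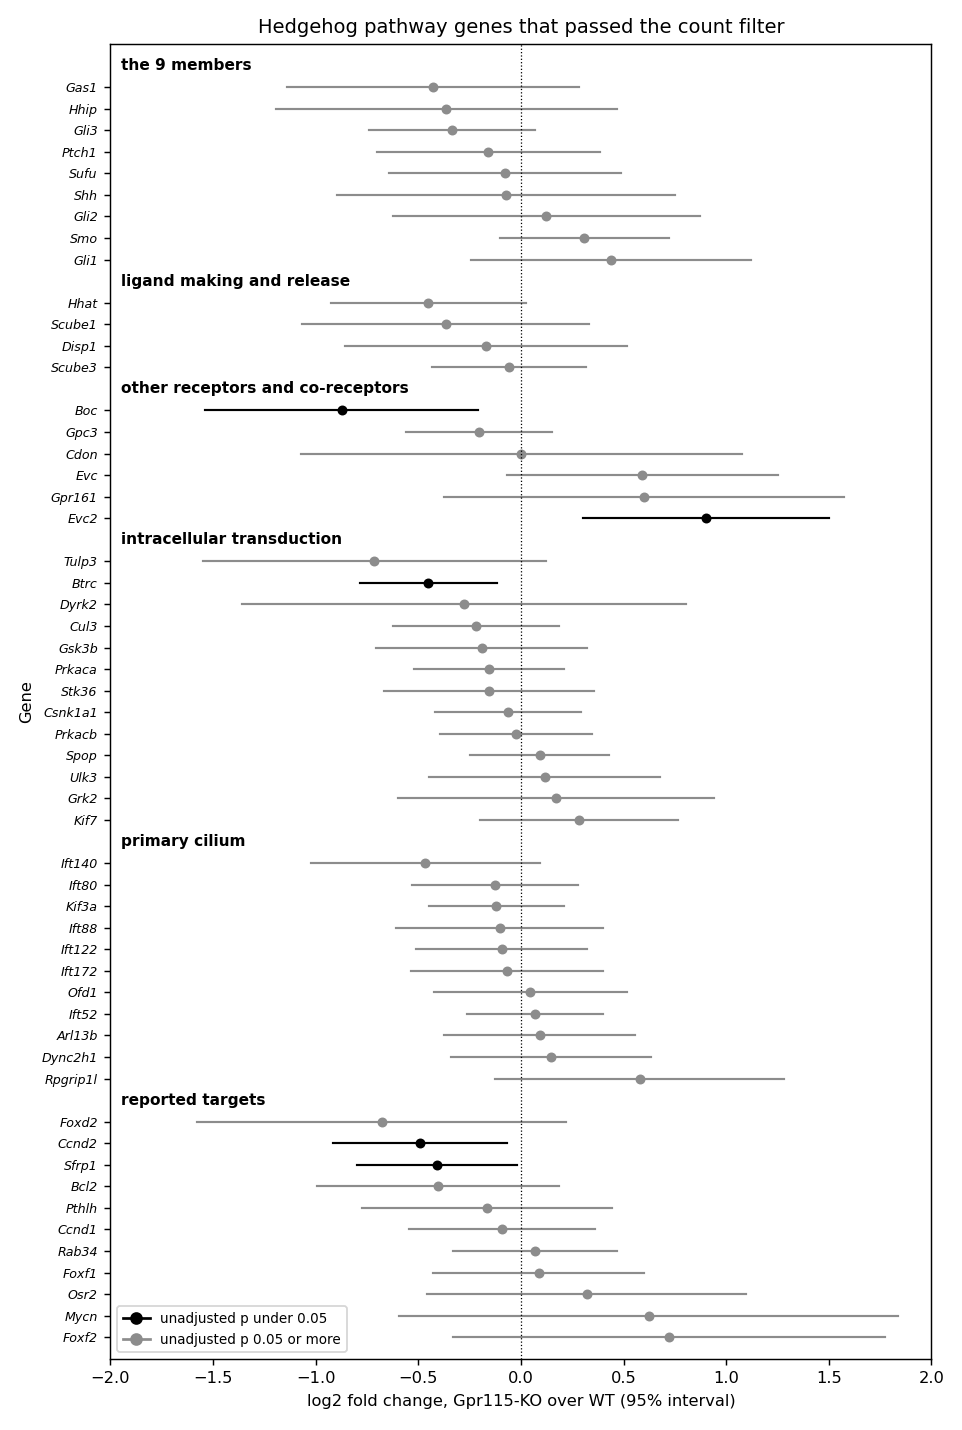
Log2 fold change of Gpr115-KO over WT with its 95% interval for the 9 members and 45 of the 46 further genes that passed the count filter, grouped by role. Black marks genes with an unadjusted p under 0.05 (5 of the 45 drawn and 0 of 9 members), and grey marks the rest; no gene passed after adjustment over all genes.

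Among receptors and co-receptors, 7 of 8 listed genes were tested and 0 were called. Boc, a co-receptor that promotes signalling, had 5.47, 2.57 and 4.76 CPM in Gpr115-KO, against 8.43, 7.501 and 7.52 CPM in WT, and the ranges did not overlap. The log2 fold change was −0.87 (SE 0.30, adjusted p = 0.295, edgeR). Its partner Cdon had 3.53, 1.18 and 1.92 CPM in Gpr115-KO, against 2.54, 2.73 and 1.32 CPM in WT, a log2 fold change of 0.00 (SE 0.49). Evc2, part of the ciliary complex through which Smo acts, had 9.12, 7.05 and 9.15 CPM in Gpr115-KO, against 3.45, 4.43 and 5.69 CPM in WT. This was the further gene with the largest positive value, a log2 fold change of 0.90 (SE 0.27, adjusted p = 0.259, edgeR). Evc, its partner in that complex, stood at 0.59 (SE 0.30, adjusted p = 0.451, edgeR) and its libraries overlapped.

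Epithelial markers beside these values were mixed. Of the 14 dental epithelium genes 10 had a log2 fold change below 0, with a median of −0.09, and 0 were called. At an unadjusted p under 0.05 there were 2 lower, Cdh1 and Notch1, and 1 higher, Sp6. Cdh1, encoding E-cadherin, had 75.2, 72.1 and 52.6 CPM in Gpr115-KO, against 113, 105 and 89.9 CPM in WT, with no overlap (log2 fold change −0.62, adjusted p = 0.245, edgeR). Notch1, which marks the layer under the ameloblasts, had 19.4, 15.5 and 15.5 CPM in Gpr115-KO, against 41.9, 29.8 and 17.0 CPM in WT (log2 fold change −0.82, adjusted p = 0.304, edgeR). Sp6, a transcription factor of the dental epithelium, had 79.3, 101 and 88.8 CPM in Gpr115-KO, against 40.4, 55.9 and 76.2 CPM in WT, with no overlap (log2 fold change 0.64, adjusted p = 0.291, edgeR). A non-coding gene on the opposite strand, Gm11532, shares 86.7% of the exonic length of Sp6. Amelx, the gene of the main enamel matrix protein, stood at 0.52 on the log2 scale (adjusted p = 0.510, edgeR) and its libraries overlapped. Krt14, a basal epithelial keratin, had 858, 999 and 407 CPM in Gpr115-KO, against 779, 725 and 799 CPM in WT. Their part in the values of the pathway genes was not tested.

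**Figure D5:**
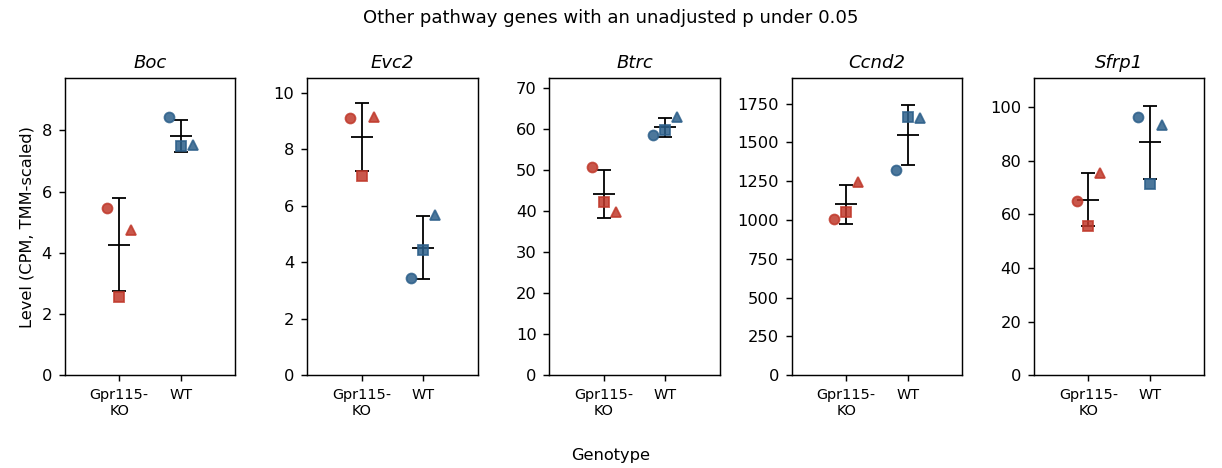
Level in CPM of 5 further pathway genes with an unadjusted p under 0.05, Gpr115-KO libraries in red on the left and WT libraries in blue on the right of each panel; shapes give the replicate number and bars the mean and SD of 3. Evc2 is higher in all Gpr115-KO libraries, Boc, Btrc and Ccnd2 are lower in all of them, and Sfrp1 overlaps between the genotypes.

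Ligand processing, transduction and ciliary genes showed few differences. Of 4 tested genes for making and releasing ligand 0 were called, and all 4 lay below 0, with a median log2 fold change of −0.27. Hhat, the enzyme that attaches palmitate to Shh, had 10.9 ± 1.62 CPM in Gpr115-KO and 14.9 ± 2.41 CPM in WT (SD, n = 3 each; adjusted p = 0.423, edgeR). Scube1, a secreted protein of a family that aids ligand release, had 11.01 ± 5.69 CPM in Gpr115-KO and 14.3 ± 1.42 CPM in WT (adjusted p = 0.677, edgeR).

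Of 13 tested transduction genes 0 were called (median −0.15), and Btrc had the smallest p. Btrc encodes the ubiquitin ligase subunit that sends Gli proteins to processing. It had 50.7, 42.1 and 39.7 CPM in Gpr115-KO, against 58.5, 59.8 and 62.9 CPM in WT, without overlap (log2 fold change −0.45, SE 0.15, adjusted p = 0.288, edgeR). With a trend on exonic length removed, the log2 fold change of Btrc was −0.22 (adjusted p = 0.628, edgeR). A stretch of 192 nt in its exons is near-identical to the ribosomal protein gene Rpl6 and to copies of it, so its counts are uncertain. Tulp3, which carries receptors into the cilium and whose exons hold stretches found in many other genes, stood at −0.71 on the log2 scale (SE 0.37, adjusted p = 0.469, edgeR). Kif7, the ciliary kinesin that regulates Gli proteins, had 0.28 (SE 0.22, adjusted p = 0.631, edgeR).

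The primary cilium, where the pathway is relayed in mammals, was represented by 11 tested genes, and 0 were called (median −0.07). Ift140, of the retrograde transport complex, stood at −0.47 on the log2 scale (SE 0.25, adjusted p = 0.483, edgeR). It lies on chromosome 17, the chromosome of the deleted gene, and the part of this position in the value was not tested. Rpgrip1l, of the base of the cilium, had 0.58 (SE 0.32, adjusted p = 0.490, edgeR). Of 11 tested genes reported as targets in other mouse tissues 0 were called, with a median of −0.09. Ccnd2, a cyclin that drives entry into the cell cycle, had 1005, 1054 and 1244 CPM in Gpr115-KO, against 1326, 1663 and 1661 CPM in WT. Its ranges did not overlap, and the log2 fold change was −0.49 (SE 0.19, adjusted p = 0.339, edgeR). Sfrp1, a secreted Wnt inhibitor, had 65.1, 55.8 and 75.6 CPM in Gpr115-KO, against 96.3, 71.3 and 93.3 CPM in WT (log2 fold change −0.41, SE 0.18, adjusted p = 0.379, edgeR).

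Markers of other cell types that could carry Hedgehog genes were read beside these values. The 10 dental mesenchyme genes, with 0 called, had a median log2 fold change of 0.26 and summed to 628 to 869 CPM in Gpr115-KO and 641 to 740 CPM in WT. Odontoblast genes (0 of 6 called) summed to 39111 to 68159 CPM in Gpr115-KO and 34982 to 77717 CPM in WT, and bone genes (0 of 6) to 1344 to 2179 CPM in Gpr115-KO and 1268 to 2229 CPM in WT. Most of the odontoblast sum is 1 gene, Col1a1, with 332252 counts or more in every library. Cartilage genes (0 of 3 called) summed to 691 to 996 CPM in Gpr115-KO and 1012 to 1245 CPM in WT. Nearly all of that is Sox9, which teeth also express (log2 fold change −0.45, adjusted p = 0.399, edgeR), while Acan, Col10a1 and Matn1 did not pass the filter. Endothelial genes (0 of 5) summed to 40.0 to 62.2 CPM in Gpr115-KO and 47.1 to 58.3 CPM in WT, and Schwann cell genes (0 of 3) to 8.34 to 10.4 CPM in Gpr115-KO and 7.73 to 9.35 CPM in WT. Leukocyte genes (0 of 7 called) summed to 50.4 to 65.0 CPM in Gpr115-KO and 45.7 to 54.1 CPM in WT. Their median log2 fold change was 1.42, with single genes from −0.23 to 2.07. Of these 7, 4 had an unadjusted p under 0.05 (edgeR), all higher, while 2 had a log2 fold change below 0. Erythroid genes (0 of 5), with a median log2 fold change of 1.22, summed to 157 to 391.6 CPM in Gpr115-KO and 138 to 158 CPM in WT. Of these, 5 of 5 were higher at that p. Over all genes 12.3% passed it. Dental mesenchyme had 2 of 10 higher at that p and odontoblast genes 1 of 6 higher. Bone had 1 of 6 lower and cartilage 1 of 3 lower. Endothelial, Schwann cell and keratinizing epithelium genes had 0. Keratinizing epithelium genes (0 of 6) summed to 34.3 to 237 CPM in Gpr115-KO and 35.3 to 126 CPM in WT. What part blood or oral epithelium had in any value of a Hedgehog gene was not tested.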

How the data were processed

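RNA of P7 first molars was made into libraries with the Nextera XT kit, per the labels' protocols. This kit does not mark strand. The submitters' processing notes name the aligner STAR 2.5.2a, the packages edgeR, limma and DESeq2, and the build GRCm38 (mm10), but no counting tool. Deposited by the authors were raw counts for each gene and a normalized signal table of CPM scaled by TMM. Divided by 1 factor per library, 100.0% of the deposited normalized values were whole reads (tolerance 0.01), and edgeR on those reads called 6 higher and 18 lower genes. The 15 transgene rows, with at most 8 counts per library, were left out.

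Counts were fitted with edgeR 4.0.16 in R 4.3.3 (filterByExpr, minimum count 10, total 15; TMM; genotype as the only term; robust quasi-likelihood F test, two-sided; Benjamini-Hochberg over 16011 genes; call at 0.05), after a check on simulated data. SE is the absolute log2 fold change over the square root of F. The likeness measure used a pseudocount of 1. Symbols are from the deposited table, and coordinates and exonic lengths from GENCODE vM21 (same build). Copies were sought with blastn 2.17.0 (95% identity, 150 nt). Pairs of libraries of a group differed by a chi-square per degree of freedom of 16.0 or more. Limits for 0 counts (3 counts) cover counting error only.

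Members, lists and tests were chosen with earlier results of these data known. Named were all members, Adgrf4, Ihh, Dhh, Boc, Cdon and Kif7. Also named were the 2 genes of smallest p in each pathway list without a call, and the 3 genes most like Shh and Gli1. Evc, Cdh1, Notch1, Sp6, Amelx, Enam, Epcam, Krt5, Krt14, Col1a1 and Sox9 were added after their values were seen. 1 further pathway gene enters the counts but is not reported here. Alternatives were other scalings, filters and tests (DESeq2 1.42.0, limma 3.58.1), the replicate number as a block, removal of a length trend, and each library left out; the recovered reads were added after the files were seen.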

Additional observations from a re-analysis of the deposited data

How the results depend on the processing

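The count of pathway members called stayed at 0 under all 17 alternatives, and member adjusted p-values ran from 0.298 to 0.997. Over all genes, the calls were 6 higher and 18 lower; they were 135 and 365 with no count filter, 64 and 179 with DESeq2, 18 and 54 with the replicate block, and 11 lower with library totals alone. Leaving out 1 library at a time gave 5 to 10 higher (10 without WT replicate 2) and 7 to 39 lower (39 without Gpr115-KO replicate 1, 9 without WT replicate 1 and 7 without WT replicate 2); the cause was not tested.

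Signs of small member values turned. Without single libraries, the log2 fold change ran from −0.50 to 0.15 for Shh, −0.44 to 0.042 for Ptch1, −0.26 to 0.39 for Gli2 and −0.26 to 0.20 for Sufu. With the length trend removed it was 0.077 for Ptch1 and 0.028 for Sufu. The signs of Smo, Gli1, Gli3, Hhip and Gas1 held in all 17, but their sizes moved without single libraries. Hhip ran from −0.68 (without WT replicate 3) to −0.068 (without WT replicate 1), and Gas1 from −0.72 (without WT replicate 2) to −0.13 (without WT replicate 1). Gli1 ran from 0.10 (without Gpr115-KO replicate 2) to 0.71 (without WT replicate 1), Gli3 from −0.49 to −0.22 and Smo from 0.22 to 0.38. Cdon had −0.0011 with at least 10 counts in every library, −0.076 with limma-voom, −0.026 with the replicate block and −0.033 with limma-trend, and −0.49 to 0.30 without single libraries. Hspg2 had 0.016 with library totals alone and 0.15 with the length trend removed. Without single libraries it ran from −0.29 to 0.081, Papln from −0.28 to 0.27, Cdk2ap1 from −0.59 to 0.087, Rnf103 from −0.080 to 0.62 and Rxra from −0.053 to 0.49.

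Adgrf4 was called in 4 of the 17 alternatives. These were no count filter (−1.18), DESeq2 (−1.17), the replicate block (−1.22) and the fit without Gpr115-KO replicate 1 (−1.45). The other 13 left Adgrf4 uncalled, and its log2 fold change ran from −1.45 to −0.98 without single libraries. The labels do not say whether libraries with the same number pair. Their deviations from the group mean correlated at 0.29, 0.02 and −0.06 across genes, and only number 1 correlated best with its own. These correlations do not settle the question. Mean member levels moved by less than 1 SD under other scalings. The SE did not follow depth alone: it was 0.37 for Shh (34 to 68 counts per library), 0.31 for Gas1 (284 to 893) and 0.19 for Smo (126 to 176).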
